A study of Mus musculus with 7 samples.

Results

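*Nr1d1* and *Nr1d2* encode REV-ERBα and REV-ERBβ, nuclear receptors that act as transcriptional repressors, and *Thra* encodes thyroid hormone receptor α. The peaks described here were those that overlapped the body of one of these 3 genes or lay within 20 kb of any of their annotated transcription start sites (TSSs). They numbered 68 of the 527912 peaks in the 6 lists. BMAL1 contributed 6 of 34737 peaks in replicate 1 and 17 of 177669 in replicate 2. REV-ERBα contributed 6 of 28881 and 8 of 29934, and RNA polymerase II (RNAP2) contributed 14 of 87870 and 17 of 168821.

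The lists come from ChIP-seq, a method that pulls down a protein with an antibody and sequences the DNA attached to it, on gastrocnemius muscle of wild-type male C57BL/6J mice aged 5 months, kept under 12 h of light and 12 h of dark on standard chow. BMAL1 (antibody ab93806) and RNAP2 (a clone given as 8WG1 for the samples and as 8WG16 for the series) were profiled at zeitgeber time (ZT) 4, that is 4 h after lights on, and REV-ERBα (a mix of antibodies 23678 and 27401) at ZT 8, with 2 replicates each. The samples include 1 input of sheared muscle DNA, labelled ZT 4, and which input the REV-ERBα lists were called against is not given in the sources used here. The sample titles call the animals controls. Controls of the study's *Bmal1* knockout line were littermates without Cre from a floxed *Bmal1* line, and whether the mice used here came from that line, and could so carry the floxed allele, is not stated. There was no treated or mutant group, so each factor was compared with input and with the other factors, and factor and time of day cannot be told apart. The muscle was used whole, and neither the share of cells in which a site is occupied nor the occupancy per cell can be read from a peak. As a check of the tissue, RNAP2 was found by both replicates within 1 kb of a TSS at all 6 skeletal muscle genes looked at (*Acta1*, *Ckm*, *Myh4*, *Tnnt3*, *Mylpf* and *Pvalb*) and at none of *Alb* (liver), *Ins2* (pancreatic islet) and *Gfap* (glia).

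In the circadian clock, BMAL1 and its partner CLOCK bind E-boxes and activate the genes of their own repressors, among them the period, cryptochrome and REV-ERB genes. REV-ERBα and REV-ERBβ bind a half-site preceded by an A/T-rich stretch, the ROR response element (RORE), and repress *Bmal1* by recruiting the corepressor NCoR1 with the deacetylase HDAC3. Thyroid hormone receptor α binds paired half-sites of the same family, and its gene is read towards *Nr1d1* from the opposite strand.

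*Nr1d1* (ENSMUSG00000020889) occupies chr11:98767932-98775333 on the minus strand of GRCm38, the build of the peak files, and is 7402 bp long. *Thra* (ENSMUSG00000058756) occupies chr11:98740638-98769006 on the plus strand and is 28369 bp long. Their bodies overlap by 1075 bp at the 3′ ends, and their outermost start sites lie 34695 bp apart. *Nr1d2* (ENSMUSG00000021775) stands alone on chr14:18204054-18239127, minus strand, over 35074 bp. All distances below are from the outermost annotated start of *Nr1d1* or *Nr1d2*, negative upstream and positive downstream.

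BMAL1 peaks in both replicates fell at 4 places, and the sequence under them is shown because each holds the E-box or E-box variants to which the peaks are compared. All stretches are from GRCm38 and are read 5′ to 3′ on the minus strand, the strand of the genes. Capitals mark matches of the E-box (CACGTG), its variants (CACGTT and CATGTG, which read AACGTG and CACATG on the other strand), the D-box (TTACGTAA or TTATGTAA, the latter seen here as TTACATAA) and the RORE. The first stretch, chr11:98783439-98783597, lies in the site 8 kb upstream of *Nr1d1*, outside any protein-coding gene, and spans both BMAL1 summits. The second, chr11:98773829-98774117, lies in intron 1 of *Nr1d1* and again spans both summits. The third, chr11:98773028-98773275, is also in intron 1 and carries the RORE match of a weaker REV-ERBα region. The fourth, chr11:98775378-98775627, holds the 250 bases before the RefSeq start of *Nr1d1* (GRCm38.p6), where BMAL1 had another peak. The last, chr14:18238495-18238708, lies in intron 1 of *Nr1d2* and spans the BMAL1 and REV-ERBα summits.
*Nr1d1*, 8 kb upstream: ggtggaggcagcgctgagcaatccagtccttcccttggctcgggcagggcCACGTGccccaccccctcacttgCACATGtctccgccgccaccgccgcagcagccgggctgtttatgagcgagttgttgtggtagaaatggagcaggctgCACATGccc
*Nr1d1*, intron 1 site: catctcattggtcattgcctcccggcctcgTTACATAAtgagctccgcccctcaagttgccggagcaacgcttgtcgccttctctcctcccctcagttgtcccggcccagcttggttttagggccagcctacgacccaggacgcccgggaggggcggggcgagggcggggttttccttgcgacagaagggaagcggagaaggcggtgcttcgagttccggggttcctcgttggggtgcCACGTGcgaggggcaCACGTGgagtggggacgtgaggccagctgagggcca
*Nr1d1*, second intron 1 region: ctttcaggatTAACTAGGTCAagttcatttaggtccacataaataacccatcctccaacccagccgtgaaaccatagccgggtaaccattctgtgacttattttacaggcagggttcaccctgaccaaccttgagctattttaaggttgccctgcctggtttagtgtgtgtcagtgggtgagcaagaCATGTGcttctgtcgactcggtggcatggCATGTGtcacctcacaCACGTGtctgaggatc
*Nr1d1*, promoter: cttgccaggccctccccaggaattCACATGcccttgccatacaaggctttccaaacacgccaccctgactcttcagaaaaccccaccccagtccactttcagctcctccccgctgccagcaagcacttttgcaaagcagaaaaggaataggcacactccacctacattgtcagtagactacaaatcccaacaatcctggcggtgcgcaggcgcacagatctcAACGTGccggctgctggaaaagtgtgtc
*Nr1d2*, intron 1 site: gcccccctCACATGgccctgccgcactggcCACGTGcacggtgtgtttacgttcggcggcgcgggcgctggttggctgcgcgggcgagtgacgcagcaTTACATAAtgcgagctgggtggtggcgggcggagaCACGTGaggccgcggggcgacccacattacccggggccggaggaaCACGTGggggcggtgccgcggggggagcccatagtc

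BMAL1 had peaks in both replicates at 3 sites of *Nr1d1* and 1 of *Nr1d2*, and these were among the strongest BMAL1 peaks of the muscle. The most prominent lay 8 kb upstream of *Nr1d1*, followed by sites in intron 1 and at the promoter, and the *Nr1d2* site lay in intron 1. Of the 19 merged BMAL1 regions at the 3 genes, 4 had a peak in both replicates, against 1.31% of all 209609 merged regions. All 4 also reached −log10 q of 1.3, that is a q-value of 0.05, in both replicates, which 22 of the 2742 regions that BMAL1 had in both replicates did. The q threshold was passed by 4 of the 6 BMAL1 peaks here in replicate 1 and by 4 of 17 in replicate 2, against 0.265% and 0.0203% of the whole lists. Of all peaks that passed it, these genes held 4 of 92 in replicate 1 and 4 of 36 in replicate 2.

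At the site 8 kb upstream of *Nr1d1* (chr11:98783032-98783812), −log10 p reached 20.4 in the first replicate and 31.6 in replicate 2, with a fold enrichment over input of 6.09 and 9.63. Both are values that the peak caller Macs2 gave at the summit, and a higher −log10 p means stronger evidence of enrichment. This peak ranked 11 of 34737 in replicate 1 and 1 of 177669 in replicate 2, where the median −log10 p was 2.48 and 1.87. Its summits lay at -8199 and -8156 bp, 43 bp apart. The intron 1 site (chr11:98772806-98774477) had −log10 p of 16.0 and 14.6, fold enrichments of 5.00 and 5.58, and ranks of 19 and 8. At the promoter (chr11:98775186-98775790), where transcription of *Nr1d1* begins, −log10 p was 7.90 and 7.66, fold enrichment 3.54 and 3.97, and rank 58 and 24. The 3 sites of *Nr1d1* kept their order in both replicates, and the values of the 2 replicates did not overlap between sites.

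At *Nr1d2*, the single BMAL1 region (chr14:18238219-18239003) had −log10 p of 28.1 and 8.80, with fold enrichments of 7.63 and 4.38 and ranks of 5 and 19. By −log10 p, the replicates thus differed more here than at any site of *Nr1d1*, but not by rank. Their fold enrichments differed most here as a ratio, but not as an absolute difference. By −log10 p, the *Nr1d2* region exceeded the upstream site of *Nr1d1* in replicate 1 and fell below the *Nr1d1* intron 1 site in replicate 2. The order of *Nr1d1* and *Nr1d2* was therefore not resolved by these samples. By the lower of both replicates, the 4 regions took places 3, 4, 12 and 17 of 2742.

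**Figure D1:**
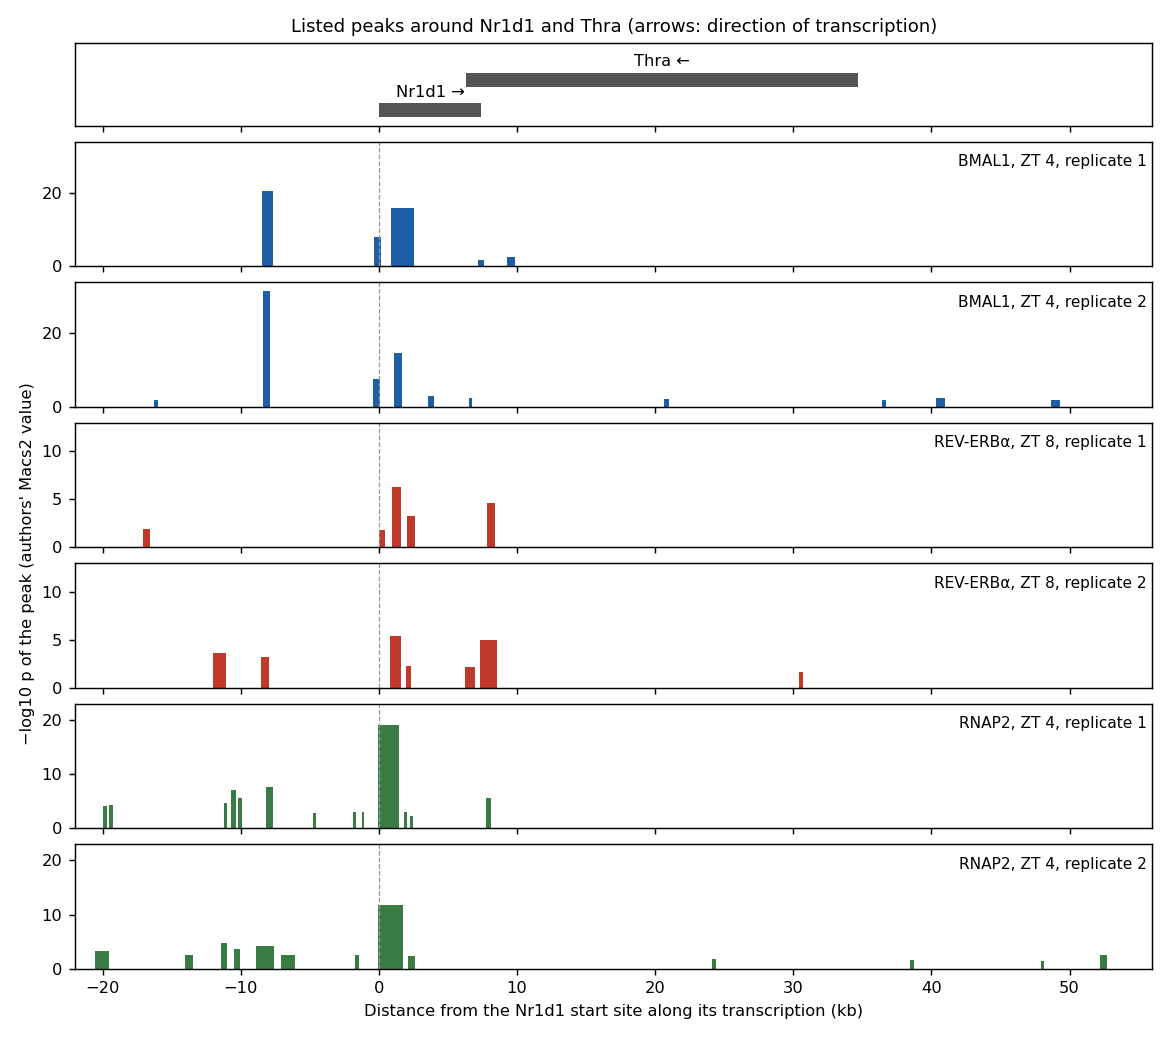
Peaks listed around *Nr1d1* and *Thra*, 1 panel per list, with bar height the −log10 p of each peak, bar width its extent, and the horizontal axis the distance in kb from the *Nr1d1* start along its transcription. The 3 BMAL1 sites recur in both replicates, the REV-ERBα bars stand over intron 1 and over the 3′ ends, and the first part of *Thra*, on the right, carries short bars of single lists.

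REV-ERBα had peaks at its own gene and at that of its paralog as well, strongest at the *Nr1d2* intron 1 site that BMAL1 also held. It further had a region at the *Nr1d1* intron 1 site, a second one further into that intron, and one at the 3′ ends of *Nr1d1* and *Thra*. Of the 10 merged REV-ERBα regions at the 3 genes, 4 were present in both replicates, against 2.2% of 57452. The q threshold was passed by 2 of 6 peaks in replicate 1 and 1 of 8 in replicate 2, against 1.12% and 1.41% of the lists. Of these 4 regions, that of *Nr1d2* alone passed it in both replicates. Of all 1263 regions that REV-ERBα had in both replicates, 207 did.

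The *Nr1d2* region (chr14:18238167-18239061) had −log10 p of 10.8 and 7.01 and fold enrichments of 4.45 and 3.47, and its peaks ranked 145 of 28881 and 242 of 29934. The *Nr1d1* intron 1 site (chr11:98773713-98774545) had 6.24 and 5.39, with fold enrichments of 2.94 and 2.90 and ranks of 270 and 450. REV-ERBα was thus stronger at *Nr1d2* than at *Nr1d1* in both replicates, and the values did not overlap. With 2 values against 2, an exact permutation test cannot go below a two-sided p of 0.333, so no test was made.

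The second intron 1 region (chr11:98772754-98773354) had −log10 p of 3.24 and 2.24, and −log10 q was 0 in both replicates. The region at the 3′ ends (chr11:98766821-98767999) lay in an intron of *Thra* and reached the last bases of *Nr1d1*, with 4.62 and 4.99 and fold enrichments of 3.06 and 3.24. By −log10 p it was below the *Nr1d1* intron 1 site in both replicates, and by fold enrichment above it in both. Its summits were 8158 and 7809 bp downstream of the *Nr1d1* start, 349 bp apart. BMAL1 had 1 weak peak there, of −log10 p 1.58, in replicate 1. The 4 REV-ERBα regions took places 172, 225, 262 and 762 of 1263 by their lower replicate, so they did not stand among the leading REV-ERBα regions as the BMAL1 regions did among theirs.

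**Figure D2:**
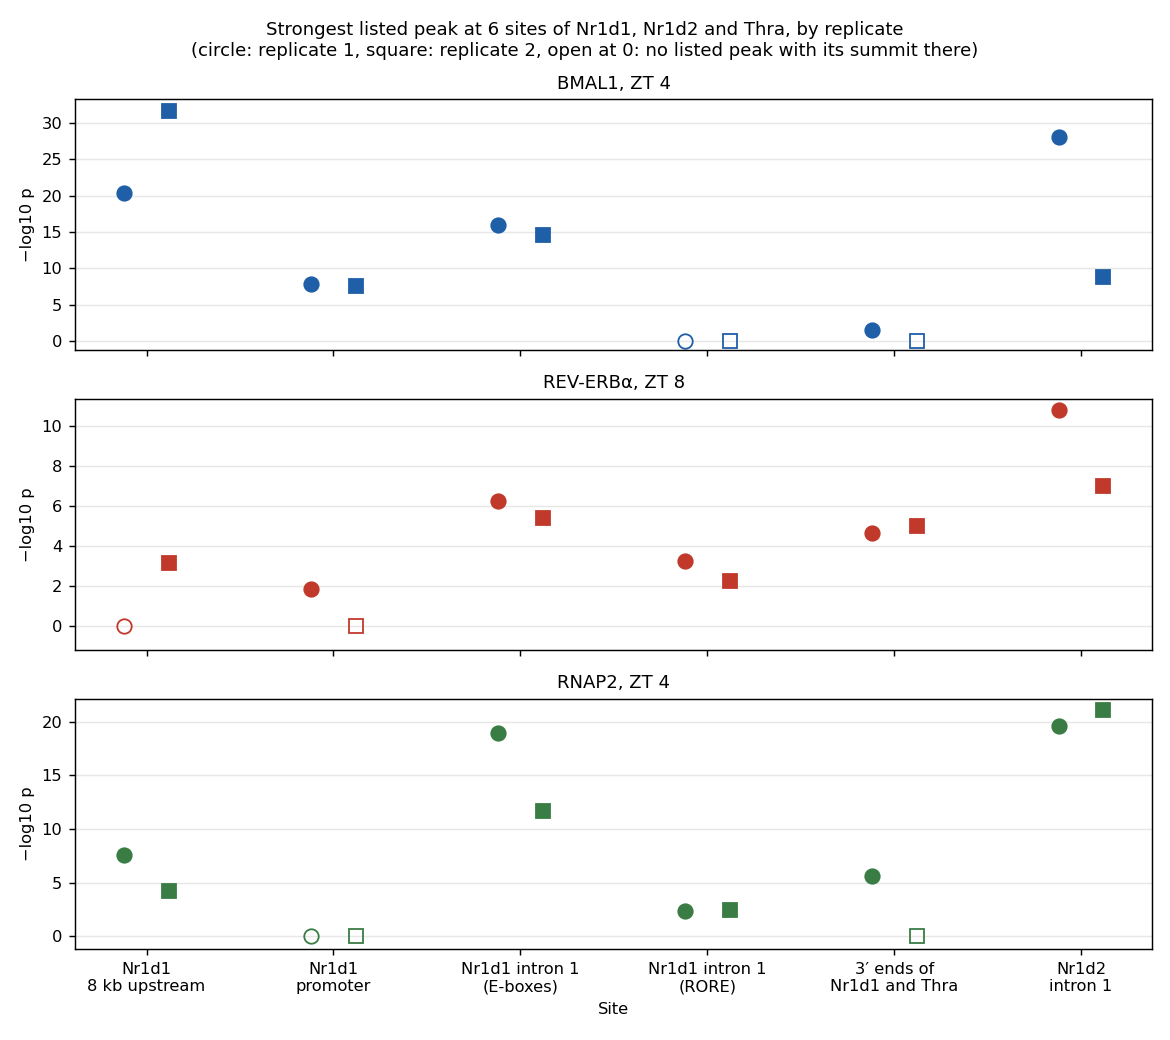
Strongest listed peak of each factor at 6 sites, with −log10 p on the vertical axis (a separate scale for each factor), circles for replicate 1, squares for replicate 2 and open symbols at 0 where no peak had its summit at the site. BMAL1 is highest at *Nr1d2* in replicate 1 and at the upstream site of *Nr1d1* in replicate 2. REV-ERBα leads at *Nr1d2*, and RNAP2 at the intron 1 sites of *Nr1d1* (E-boxes) and *Nr1d2*, in both replicates.

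BMAL1 and REV-ERBα met at 5 sites, counting those with peaks in at least 3 of their 4 lists. These were 5 of the 22 merged sites at the 3 genes, against 0.211% of 260449. Peaks of all 4 lists lay at the intron 1 sites of *Nr1d1* and *Nr1d2*. At the upstream site REV-ERBα had a peak in replicate 2 only, with −log10 p 3.16, at the promoter in replicate 1 only, with 1.83, and at the 3′ ends BMAL1 was present in replicate 1 only. At the *Nr1d2* site the BMAL1 and REV-ERBα summits lay 51 to 88 bp apart, compared with 35 bp between the BMAL1 replicates and 139 bp between those of REV-ERBα. At the *Nr1d1* intron 1 site they were 24 to 213 bp apart, with 108 bp and 129 bp between replicates. No distance between the factors exceeded that between the REV-ERBα replicates at *Nr1d2*, and 1 of 4 did at *Nr1d1*.

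*Nr1d1* had 4 such sites within its body or 20 kb of a TSS, and 15 of 21951 protein-coding genes, itself included, had 4 or more. With its 3 BMAL1 regions it was 1 of 70 genes that had 3 or more, and with its 3 REV-ERBα regions 1 of 51. At least 1 region was found at 8.54% of these genes for BMAL1, at 5.72% for REV-ERBα, at 47.2% for RNAP2 and at 2.07% for the sites of at least 3 lists. *Nr1d2* had 1 region of each kind. *Thra* counted 1 BMAL1 region, 2 REV-ERBα regions and 2 shared sites, and each of these lay within reach of *Nr1d1* too.

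Over its whole width, each of the 4 BMAL1 sites held at least 1 CACGTG, at 0 to 309 bases from the summits of the replicates. The share of all BMAL1 regions with a CACGTG anywhere in their width was not computed. The upstream site of *Nr1d1* held 1 CACGTG, 10 and 53 bases from the summits of replicates 1 and 2. This E-box also falls within the 149 bp product of the primer pair with which the study assayed this site by ChIP-qPCR, at chr11:98783516-98783664. The BMAL1 region in intron 1 overlapped the second REV-ERBα region, whose CACGTG is shown in the third stretch. In the rest of the intron 1 site, CACGTG occurred 3 times, and the nearest copies were 98 and 5 bases from the summits. A pair of them, seen near the end of the second stretch, begin 15 bp apart with 9 bases between them. The promoter summits were nearest to a CACGTT, at 35 and 14 bases, and a CACGTG lay 255 and 309 bases away, at -362 bp.

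*Nr1d2* held 3 copies of CACGTG and a D-box within the printed stretch. The BMAL1 summit of replicate 2 fell inside the middle E-box and that of replicate 1 inside the D-box, 33 bases from the same E-box. The REV-ERBα summits were 3 and 12 bases from the outer copies. A D-box, the element bound by DBP, TEF, HLF and NFIL3, also lay in the *Nr1d1* intron 1 site, where the REV-ERBα summit of replicate 1 fell inside it. In the windows around summits, a match counted only if it lay wholly inside. The CACGTG 98 bases from the replicate 1 BMAL1 summit in *Nr1d1* intron 1 was cut by the 100 bp window and not counted. Within 100 bp of the stronger summit, CACGTG was present at 2 of the 4 BMAL1 regions and 3 of the 4 REV-ERBα regions, and within 50 bp at 1 of 4 for each factor. Within 100 bp it was present in 2.55% of all 2742 BMAL1 regions, in 3.4% of all 1263 REV-ERBα regions and in 7.15% of 32851 RefSeq promoters of 300 bases, and within 50 bp in 1.46% and 1.35% of the BMAL1 and REV-ERBα regions.

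Windows with at least 3 copies numbered 2 of 2742 for BMAL1, 1 of them at *Nr1d2*, and those with both CACGTG and a D-box numbered 4 for BMAL1 and 3 of 1263 for REV-ERBα. The latter included both intron 1 sites, and within 50 bp no REV-ERBα region had both elements. These combinations were looked for after the sequences had been seen. The D-box alone was present in 1.6% of BMAL1 windows, 1.82% of REV-ERBα windows and 1.06% of promoters.

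The RORE had 1 match among the 6 sites, in the second REV-ERBα region of intron 1, 268 and 122 bases from the summits of replicates 1 and 2, and so outside the 100 bp window. Within that window a RORE was present in 2 of 1263 REV-ERBα regions, 0.158%, and in 0.384% of promoters. Half-sites (AGGTCA or GGGTCA), whatever the bases before them, were found within 100 bp of the stronger summit at 0 of the 4 REV-ERBα regions, against 20.4% of all 1263. They were present in 27.5% of promoters, which are longer than these windows. The whole *Nr1d2* region held 4 half-sites, all farther from the summits. Entries in the RefSeq promoter table were found for 2 of the 3 genes. That of *Nr1d1* had 1 CACGTT and 2 CATGTG, and that of *Nr1d2* had 1 half-site and none of the E-box forms. Among promoters, 4.68% held CACGTT and 14.2% held CATGTG.

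**Figure D3:**
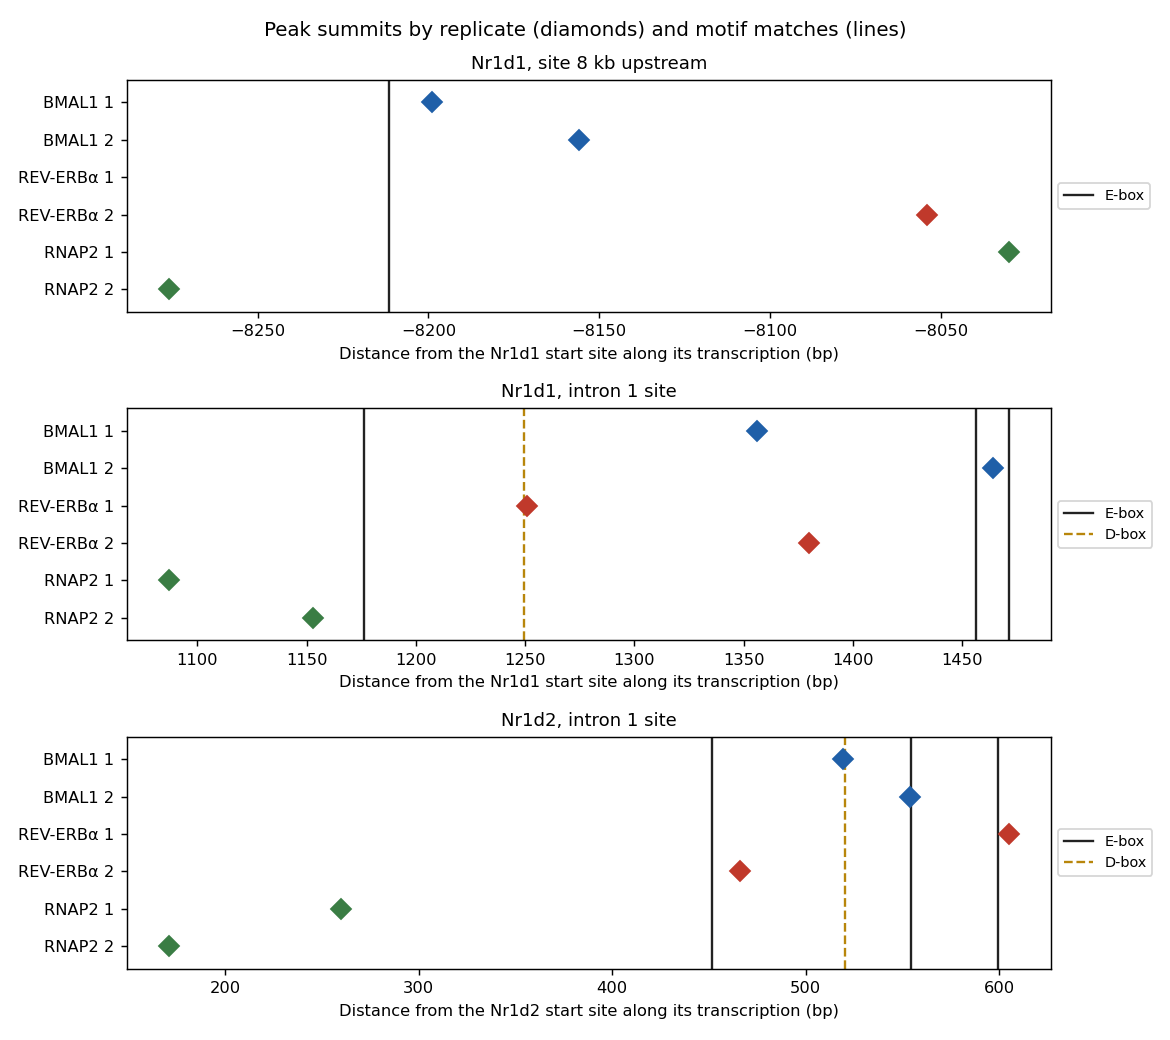
Summits of each list (diamonds) and matches of the E-box CACGTG (solid lines) and the D-box (dashed lines) at 3 sites, with the distance in bp from the start of *Nr1d1* or *Nr1d2* on the horizontal axis. RNAP2 summits lie nearer to the start than those of BMAL1 and REV-ERBα at both intron 1 sites.

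RNAP2, the enzyme that transcribes protein-coding genes, was found at the starts of both REV-ERB genes in both replicates. It was found as well at a series of places upstream of *Nr1d1*, the site 8 kb away among them. Of the 22 merged RNAP2 regions at the 3 genes, 8 were present in both replicates, against 4.39% of 245088. Of these 8, 7 lay within reach of *Nr1d1*, the farthest of them at the start of the neighboring gene *Msl1*. Counting *Nr1d1*, 15 genes of 21951 had 7 or more. With −log10 p of at least 3, 6 of the 8 regions were left. The q threshold was passed by 7 of 14 peaks in replicate 1 and 2 of 17 in replicate 2, against 12.5% and 2.15% of the lists.

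At *Nr1d2* the RNAP2 region (chr14:18238023-18239236) had −log10 p of 19.6 and 21.1 and fold enrichments of 8.65 and 9.19, with summits in exon 1, 260 and 171 bp past the start. At *Nr1d1* the region (chr11:98773591-98775403) had 19 and 11.7 and fold enrichments of 8.59 and 5.44. It covered the annotated start, yet its summits lay 1087 and 1153 bp downstream in intron 1, beside the BMAL1 and REV-ERBα summits. Among the 5741 RNAP2 regions in both replicates that cover a protein-coding TSS, the median offset of the summit was 5 bp, and 8 regions, 0.139%, had it 1000 bp or more downstream. Where the region covered exactly 1 TSS, this was 5 of 1323, 0.378%, with a median of 25 bp. The 5741 regions had a median width of 674 bp, against 1813 bp for that of *Nr1d1*. Only a region wider than 1000 bp can hold a summit that far from a TSS it covers. Regions of like width were not compared, so these shares do not show how rare the offset is among wide regions.

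The upstream site had RNAP2 −log10 p of 7.55 and 4.22, with fold enrichments of 4.85 and 3.15, and thus carried BMAL1 and RNAP2 in both replicates. Regions with their stronger summit at -10503 and -11234 bp had 7.15 and 3.72, and 4.68 and 4.73. Weaker ones were found at -1769 bp, with 2.93 and 2.53, and in intron 1, with 2.34 and 2.42. The farthest region, with 4.11 and 3.22, spanned the start of *Msl1*, a gene of the MSL histone acetyltransferase complex that begins 20183 bp from *Nr1d1*. All 4 BMAL1 regions overlapped an RNAP2 region present in both replicates, as did 4.38% of all BMAL1 regions. For REV-ERBα this was 3 of 4, against 32.9%, the exception being the region at the 3′ ends, where RNAP2 had a peak of −log10 p 5.65 in replicate 1 only.

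**Figure D4:**
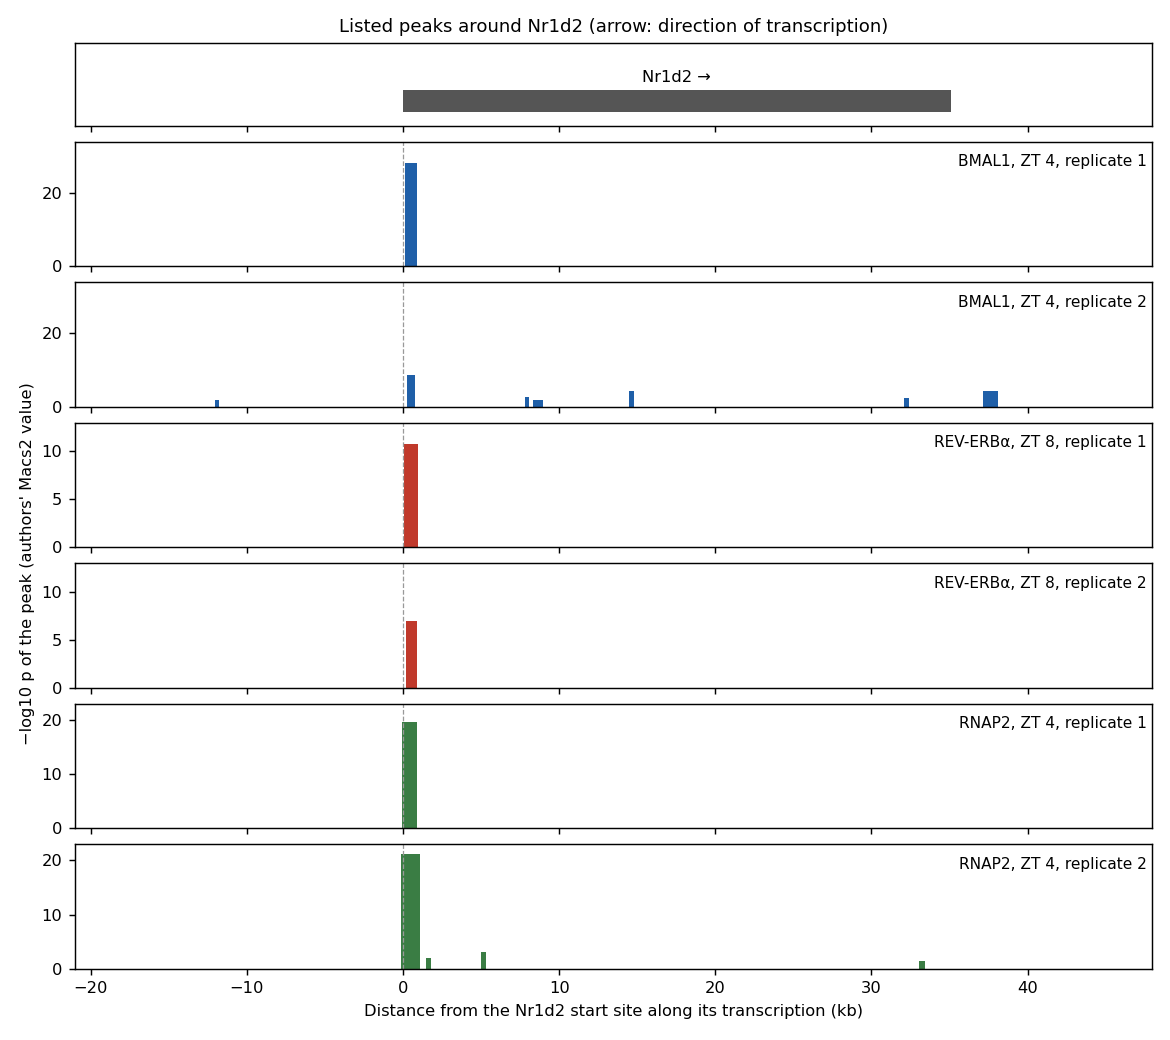
Peaks listed around *Nr1d2*, 1 panel per list, with bar height the −log10 p of each peak, bar width its extent, and the horizontal axis the distance in kb from the *Nr1d2* start along its transcription. All 6 lists share 1 place, just past the start, and the remaining bars belong to replicate 2 of BMAL1 or RNAP2.

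*Thra* differed from its neighbor in that no factor had a region in both replicates within 1 kb of its start sites. The gap from any of its 8 annotated starts to the nearest BMAL1 peak was 11919 bp in replicate 1 and 771 bp in replicate 2, and the latter had −log10 p of 2.23. For REV-ERBα the gaps were 13364 and 366 bp, the second to a peak of 1.69. For RNAP2 they were 13614 and 2380 bp, so that neither list had a peak within 1 kb of a *Thra* start. RNAP2 regions of both replicates reached that close at 30.5% of protein-coding genes, so most genes lacked one, as *Thra* did. The regions counted for *Thra* stood at its 3′ end or, in intron 1 of *Nr1d1*, at the edge of its 20 kb reach. Its BMAL1 region was the *Nr1d1* intron 1 site, which came within reach through the long peak of replicate 1, and the strongest BMAL1 peak within reach in replicate 2 ranked 11443. *Med24*, a Mediator subunit gene with 7 start sites in the same window, had 3 peaks on its body, each in a single list.

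Among 20 genes of the clock, *Nr1d1* stood among the leading ones for BMAL1. For REV-ERBα it was next to last of the 10 that had a region in both replicates. A BMAL1 region in both replicates was present at 13 of the 20, a REV-ERBα region at 10, an RNAP2 region at 15 and a site in at least 3 lists at 12. With *Nr1d1* and *Nr1d2* left out these were 11, 8, 13 and 10 of 18. Ordered by the lower replicate of the strongest region, *Ciart* led for BMAL1 with 21.7, followed by *Per1* with 21.2, *Nr1d1* in place 3 of 13 with 20.4 and *Tef* with 12.0, and *Nr1d2* was in place 6 with 8.80. The replicates of *Nr1d1*, 20.4 and 31.6, overlapped those of *Ciart*, 24 and 21.7, of *Per1*, 36.5 and 21.2, and of *Tef*, 30.7 and 12.0. Those of *Nr1d2*, 28.1 and 8.80, overlapped them as well. The places of *Nr1d1* and *Nr1d2* beside these genes were thus not resolved. The median was 8.56 in the list and 1.87 over the 1875 genes with a BMAL1 region. *Nr1d1* and *Cry2* were the 2 genes whose BMAL1 value was higher in replicate 2, and the other 11 had the higher value in replicate 1.

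For REV-ERBα the order was led by the genes of the D-box factors *Tef*, with 14.5, and *Dbp*, with 10.6, and by *Ciart*, whose product represses BMAL1, with 9.55, while *Nr1d2* took place 6 with 7.01 and *Nr1d1* place 9 of 10 with 5.39. The list had a median of 7.05 and all 1256 genes one of 3.29. The replicates of *Nr1d2*, 10.8 and 7.01, overlapped those of *Dbp*, 10.6 and 11.8, and of *Ciart*, 9.55 and 15.9. They also overlapped those of *Bhlhe40*, 7.09 and 7.31, of *Per2*, 7.49 and 16.3, and of *Per1*, 5.41 and 7.69. The place of *Nr1d2* beside these genes was thus not resolved. The replicates of *Nr1d1*, 6.24 and 5.39, overlapped those of *Per1* and of *Bhlhe41*, 5.84 and 5.65. The place of *Nr1d1* beside these genes was not resolved either. For RNAP2, *Nr1d2* took place 1 of 15 and *Nr1d1* place 7, with lower values of 19.6 and 11.7, beside a median of 10.4 in the list and 4.73 over all genes with a region. The replicates of *Nr1d2*, 19.6 and 21.1, overlapped those of *Tef*, 22.5 and 15.5, of *Ciart*, 20.9 and 15.1, and of *Dbp*, 32.2 and 14.5. Those of *Nr1d1*, 19 and 11.7, overlapped these 3 genes too, so neither place was resolved. The positive-arm genes *Arntl* and *Npas2* had no BMAL1 or REV-ERBα region by this count, and *Clock* had a BMAL1 region of 3 and 2.15 but no REV-ERBα region. By ChIP-qPCR at ZT 8, the study did detect REV-ERBα at the promoters of *Arntl*, the *Bmal1* gene, and of *Clock*.

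**Figure D5:**
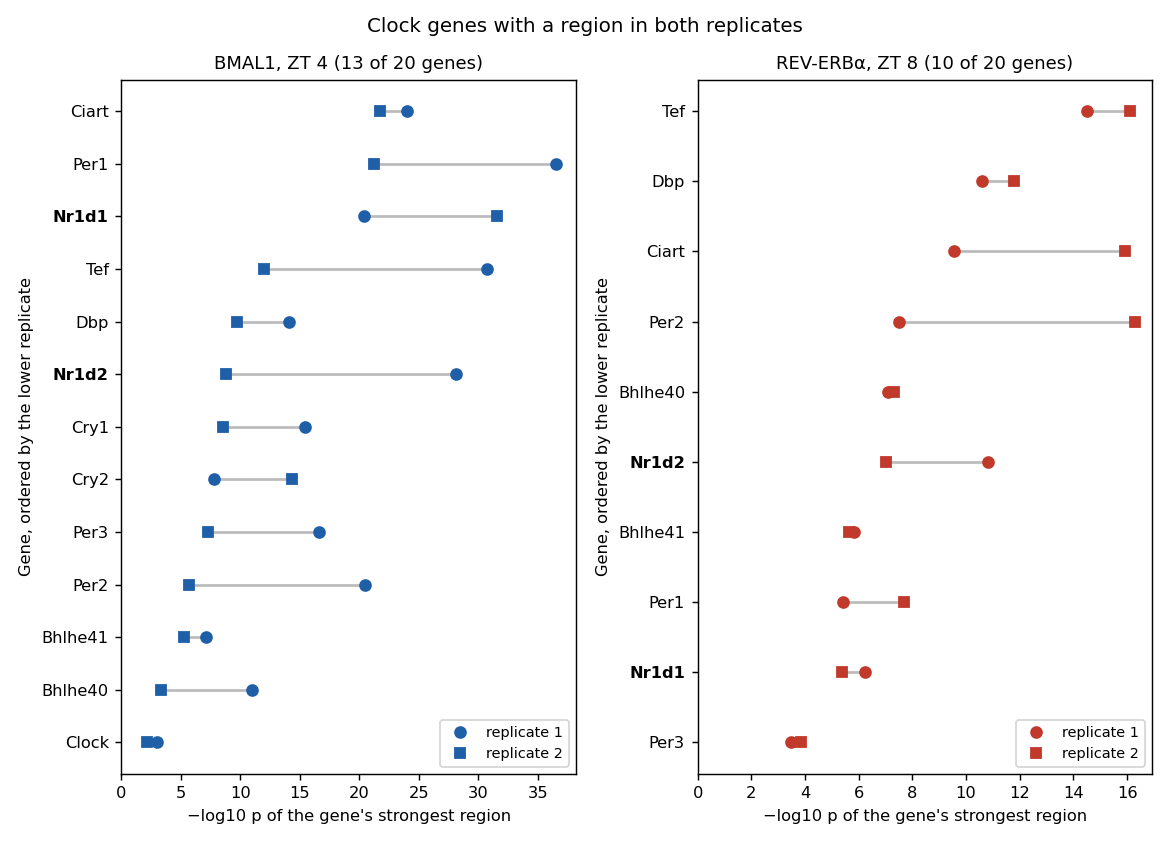
Genes of the clock with a region in both replicates, for BMAL1 and for REV-ERBα, with the −log10 p of the strongest region on the horizontal axis, circles for replicate 1, squares for replicate 2, and genes ordered by the lower value. *Nr1d1* and *Nr1d2* are in bold. By the lower value *Nr1d1* stands in place 3 for BMAL1 and place 9 for REV-ERBα, and its replicates overlap those of other genes for both factors.

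Of 8 genes for thyroid hormone receptors, their retinoid X receptor partners and their corepressors, *Thra* alone had a BMAL1 region in both replicates, the one it shares with *Nr1d1*. REV-ERBα regions were present at 3 genes, namely *Thra*, *Thrb* with −log10 p of 2.09 and 2.15, and *Hdac3*, the deacetylase of the REV-ERB corepressor complex, with 5.99 and 6.59. RNAP2 regions were present at all 8, with lower values from 2.34 at *Thra* to 12.2 at *Rxrb*. The RNAP2 region of *Thra* was the weak one in intron 1 of *Nr1d1*, so the lowest value of this list did not come from the body of *Thra*.

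The remaining peaks at the 3 genes came from 1 replicate of their factor only. Of the 68, 33 lay in regions present in both replicates and 35 did not. The latter had −log10 p between 1.58 and 2.48 in replicate 1 of BMAL1 and between 1.83 and 4.25 in replicate 2, where the list was 5.11 times as long as that of replicate 1. For REV-ERBα they lay between 1.83 and 1.86 and between 1.69 and 3.68, and for RNAP2 between 2.76 and 5.65 and between 1.45 and 3.12. The q threshold was passed by 1 of them, the RNAP2 peak at the 3′ ends. Peaks per 100 kb of the *Nr1d1* and *Thra* window were 6.69 and 13.4 for BMAL1, 6.69 and 9.37 for REV-ERBα and 17.4 in each RNAP2 list, and over the genome 1.27 and 6.52, 1.06 and 1.10, and 3.22 and 6.19. The *Nr1d2* window had 1.5 and 10.5 for BMAL1, 1.5 in each REV-ERBα list, and 1.5 and 5.99 for RNAP2.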

How the data were processed

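ChIP-seq peaks of BMAL1 and RNAP2 at ZT 4 and REV-ERBα at ZT 8 in mouse gastrocnemius were taken from the 6 lists the authors deposited, 1 per sample. Per the study's methods the authors mapped reads to mm10 with BWA, dropped duplicates and reads with several mappings, brought the replicates of a factor to a like depth, and ran Macs2 2.1.1 on each sample against input, keeping peaks up to a p-value of 0.05. The deposited ratio (fold enrichment over input at the summit), −log10 p and −log10 q were used as the authors' Macs2 run gave them. The integer score was not used. Read counts per peak were not used here, so no counting interval is given and the depth at a peak is unknown. The labels call the samples of a factor replicates, and no p-value across samples was computed.

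Peaks that shared 1 bp or more were joined into regions, and a region counted for both replicates if peaks of both lists lay in it. Its strength was the lower −log10 p. Genes and start sites came from GENCODE M21, and 0 peaks ended past their GRCm38 chromosome. The motifs given with the results were searched on both strands, overlaps allowed, and the half-site lies within the RORE. Direct repeats of the half-site with 2 or 4 bases between them had no match at the named sites. The named regions were those present in both replicates or in 3 or more of the BMAL1 and REV-ERBα lists, and the genes named beside the members were neighbors in the window and those of the clock and thyroid lists. The members and lists were chosen with earlier results of these data known. Alternatives were stricter p and q thresholds, a larger required overlap, a reach of 10 kb, ranking by fold, other motif windows and leaving out each replicate. Steps were run in Python 3.11.15 with matplotlib 3.10.9 and checked on simulated peaks. 1 further gene chosen for the check of the tissue is not reported here, for a reason that does not depend on its values.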

Additional observations from a re-analysis of the deposited data

How the results depend on the processing

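The 4 BMAL1 regions kept their number under the stricter p and q thresholds, the larger overlap and the reach of 10 kb. With −log10 q of at least 1.3, 1 REV-ERBα region, 2 RNAP2 regions and 2 shared sites were left, and with −log10 p of at least 3, 3 shared sites. Of all regions present in both replicates, 207 of 1263 for REV-ERBα and 3155 of 10752 for RNAP2 reached this q in both. With a single list in place of both, the number of regions ranged from 6 to 17 for BMAL1, from 6 to 8 for REV-ERBα and from 14 to 17 for RNAP2. Shared sites that needed all 3 remaining lists ranged from 2 without BMAL1 replicate 1 to 3 without any other. Within 50 bp of the summit, 2 of the 8 BMAL1 and REV-ERBα regions held CACGTG, against 5 within 100 bp. Ranked by fold, the best rank of a REV-ERBα peak at Nr1d1 went from 270, of the intron 1 peak, to 669, of the peak at the 3′ ends, in replicate 1, while the intron 1 peak itself went from 270 to 717 and, in replicate 2, from 450 to 1508. The best rank at Nr1d2 went from 242 to 376 in replicate 2. Of 40 alternatives, 25 stayed within 1.5 times the count reported or within the spread of the replicates. Fewer lists or peaks enter by construction, and no other cause was tested. No paired analysis was possible because the results come from no test. Depth at single peaks is unknown.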
